A study of Oryza sativa Japonica Group and Oryza sativa Indica Group with 10 samples.

Results

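The genes of the auxin response described here are the Aux/IAA, ARF and GH3 families of rice. A probe set was taken as a member if it was paired with exactly 1 gene whose symbol or synonym is an IAA, an ARF or a GH3 name followed by a number. This gave 65 of the 57258 rice probe sets of the array, of which 34 belonged to Aux/IAA genes, 20 to ARF genes and 11 to GH3 genes. They stood for 52 of the 17905 genes that were paired with probe sets, namely 26 Aux/IAA, 17 ARF and 9 GH3 genes, and 10 of these genes had several probe sets. They were chosen by name and not by a measured value, though earlier results of these data were known.

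The samples were young panicles 2 cm long of Nipponbare, which is a japonica cultivar, and of 93-11, which is an indica cultivar. Total RNA of 5 biological replicates of each cultivar was labeled with biotin as cRNA and hybridized to the Affymetrix rice array, which is read in 1 colour. The labels give no mutant and no treatment in either group. The data thus compare the transcripts of the cultivars in a growing panicle, and no other tissue or stage was used here.

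Auxin acts by removing repressors. Aux/IAA proteins bind ARF transcription factors at auxin response elements and recruit TOPLESS corepressors. Auxin joins them to the TIR1/AFB receptors, which mark them for degradation, and the ARF proteins are then free to act. Many Aux/IAA and GH3 genes are themselves induced by auxin. Some GH3 enzymes close the loop by joining auxin to amino acids, and others join jasmonate to amino acids. In the panicle, auxin transport and response set where branches and spikelets start.

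The arrays differed in level before any gene was read. The trimmed mean signal ranged from 205 to 377 over the Nipponbare arrays and from 196 to 235 over the 93-11 arrays (277 ± 62.4 and 213 ± 18.5, SD, n = 5 each, p = 0.0317, two-sided exact permutation test over all divisions of the arrays into 5 and 5, 0.0635 after adjustment over 2 array measures). The other measure, the median 3′ to 5′ ratio of the rice actin, EF1a and GAPDH control probe sets, was 3.22 ± 0.749 in Nipponbare and 2.15 ± 0.959 in 93-11 (SD, n = 5 each, exact p = 0.111). All 10 young panicle markers that were looked up (MADS-box genes, RFL and OSH1) had a probe set whose mean log10 signal passed 2.5 in each cultivar, whereas none of the 4 probe sets of maturing anther markers or the 9 of endosperm markers did. Some of these markers moved with cultivar. Of the 17 young panicle probe sets, that of RFL was higher on both scales (log2 difference 0.68 and 1.03, limma adjusted p = 0.0375 and 0.000171) and 1 of OSH1 lower (-1.66 and -1.30, adjusted p = 2.87e-06 and 4.38e-08), OsMADS5 was lower as deposited only and OsMADS34 higher after scaling only. The other OSH1 probe set, with means of 4658 in Nipponbare and 4004 in 93-11, was not called on either scale (-0.20 and 0.15, limma adjusted p = 0.565 and 0.36). The weak anther marker TDR was lower on both scales (log2 difference -1.22 as deposited, limma adjusted p = 0.0204, and 0.0383 after scaling). The summed signal of the 3 leaf marker probe sets (CAB2R and PSAH) lay between 11462 and 18901 on the Nipponbare arrays and between 224 and 2117 on the 93-11 arrays, and after scaling it still lay between 10375 and 13950 and between 281 and 2495. Leaf markers and some panicle markers thus moved with cultivar. The array level was lower on average in 93-11, but its ranges overlapped and its exact permutation p was 0.0635 after adjustment. A level difference by cultivar is thus not taken as established. The part of the array level and of these markers in the differences given below was not tested. For the array level, each difference is given as deposited and after scaling every array to a common trimmed mean.

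Of the 3 families, the ARF family had the largest share of probe sets with a high signal. A mean log10 signal of over 2.5 in each cultivar was reached by 29 of the 65 probe sets (44.6%), against 19.2% of all rice probe sets and 40.1% of the probe sets paired with 1 gene. It was reached by 16 of 20 ARF probe sets (80%), 11 of 34 Aux/IAA probe sets (32.4%) and 2 of 11 GH3 probe sets (18.2%). In genes, 13 of 17 ARF, 11 of 26 Aux/IAA and 2 of 9 GH3 genes had such a probe set. At the other end, 12 Aux/IAA, 1 ARF and 1 GH3 probe set stayed below a mean log10 signal of 1.5 in both cultivars, among them those of IAA4, IAA16 and IAA20. Another 5 probe sets passed 2.5 in Nipponbare alone (IAA24, IAA31, ARF16, ARF18 and GH3.1), and that of GH3.8 passed it in 93-11 alone. Signals of different probe sets depend on their probes, so the levels of different genes are given as values and were not tested against each other. The authors found that many probes of the array hit the Nipponbare genome several times. Whether probes of the members do so was not tested.

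**Figure D1:**
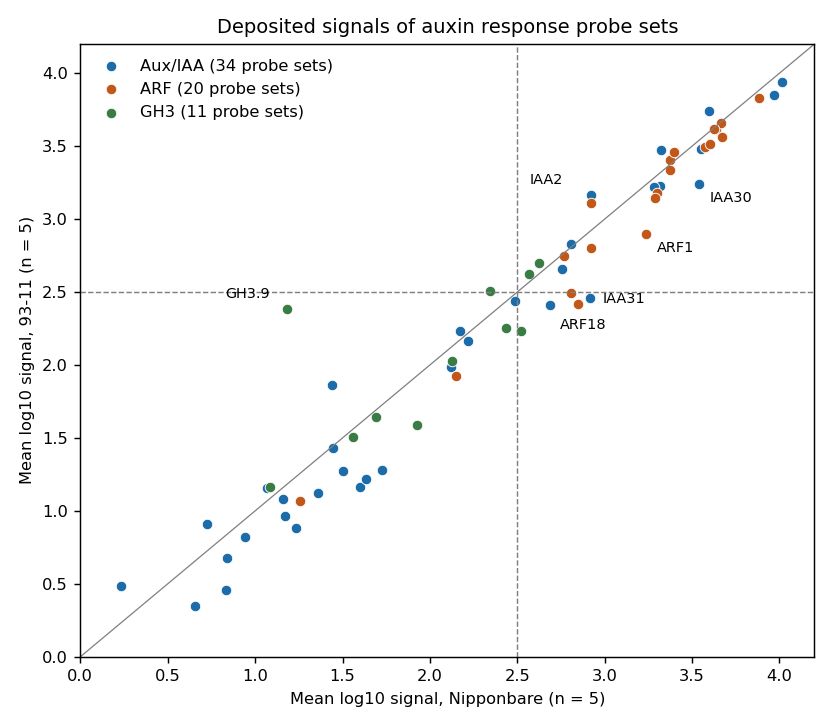
Mean log10 signal of the 65 probe sets in Nipponbare (x axis) and in 93-11 (y axis), each over 5 arrays, with 1 point per probe set coloured by family. Dashed lines mark 2.5 and the diagonal marks equal signal. ARF points gather at the upper right, with 16 of 20 above 2.5 in both cultivars, Aux/IAA points spread over the whole range, and GH3.9 lies farthest above the diagonal.

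The 3 Aux/IAA probe sets of highest deposited signal were those of IAA17, with 10435 ± 2025 in Nipponbare and 8778 ± 653 in 93-11 (SD, n = 5 each), IAA3 (9510 ± 1978 and 7108 ± 742) and IAA21 (4003 ± 613 and 5501 ± 676). For the ARF family they were 1 of ARF23 (7768 ± 1740 and 6766 ± 857) and both of ARF4 (4708 ± 844 and 4573 ± 696 for 1 of them). In the GH3 family the probe sets of GH3.4 and GH3.7 averaged 436 ± 123 and 377 ± 87.0 in Nipponbare and 508 ± 114 and 427 ± 105 in 93-11. None of IAA17, IAA3 and ARF23 passed the test for a cultivar difference on either scale.

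Differences between the cultivars were tested with limma on log2(signal + 16), with Benjamini-Hochberg adjustment over all 57258 probe sets and a threshold of 0.05. On this scale the change of a weak probe set is understated. As deposited, 3 of the 65 probe sets were higher and 9 lower in 93-11 (4.62% and 13.8%), beside 1.66% and 11.9% of all rice probe sets, and the 3 became 6 without replicate 2 of Nipponbare, the array of highest level. After scaling, 13 were higher and 6 lower (20% and 9.23%), beside 7.84% and 9.21%. Of the 22436 probe sets paired with 1 gene, 1.68% rose and 17.8% fell on deposited values, against 12.6% and 13.6% on scaled ones. The lower calls of the members were thus near the share of all rice probe sets and below that of the paired ones. Among the 29 probe sets above 2.5 in both cultivars, 1 was higher and 2 were lower as deposited, where 1.04% and 12.4% of all probe sets of that level were called, and 10 were higher and 2 lower after scaling, where 19.2% and 7.7% were called. The median log2 difference, 93-11 minus Nipponbare, was -0.21 over the 65 probe sets as deposited and 0.08 after scaling. It was -0.16 and 0.03 over all rice probe sets, and -0.24 and 0.05 over those paired with 1 gene.

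By family, 2 of 34 Aux/IAA probe sets were higher and 4 lower as deposited (5.88% and 11.8%). After scaling 4 were higher and 2 lower (11.8% and 5.88%). In the ARF family 0 were higher and 3 lower as deposited, and 5 were higher and 3 lower after scaling. The count of 0 became 1 at an unadjusted p under 0.05 and stayed at 0 by the methods' t-test. Of 11 GH3 probe sets 1 was higher and 2 lower as deposited (9.09% and 18.2%). After scaling 4 were higher and 1 lower (36.4% and 9.09%). Over all rice probe sets the shares were 1.66% and 11.9% as deposited and 7.84% and 9.21% after scaling. Over those paired with 1 gene they were 1.68% and 17.8%, and 12.6% and 13.6%. The family medians were -0.22, -0.27 and -0.11 as deposited and 0.03, 0.08 and 0.14 after scaling. No test of a difference between families was made.

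The same 9 probe sets were called in the same direction on both scales, and each of these calls remained without any single array. IAA2, IAA26 and GH3.9 were higher in 93-11, and IAA30, IAA31, ARF1, ARF16, ARF18 and GH3.1 were lower. Calls on both scales were made for 1.66% of all rice probe sets in the higher and 9.21% in the lower direction. Of the 22436 probe sets paired with 1 gene, 376 were called higher and 3041 lower on both scales. The ranges of the cultivars did not overlap for 8 of the 65 probe sets as deposited and for 15 after scaling. This held for 11.9% and 14.6% of all rice probe sets. Among the 22436 paired with 1 gene, from which the members were drawn, it held for 3778 and 4992. No excess of the members is read from these counts. In these bulk samples, fewer cells that express a gene and less transcript per cell cannot be told apart. Nor can less transcript in 93-11 be told apart from a base difference of 93-11 in the target of a probe, because most probes of the array were designed on japonica transcripts.

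**Figure D2:**
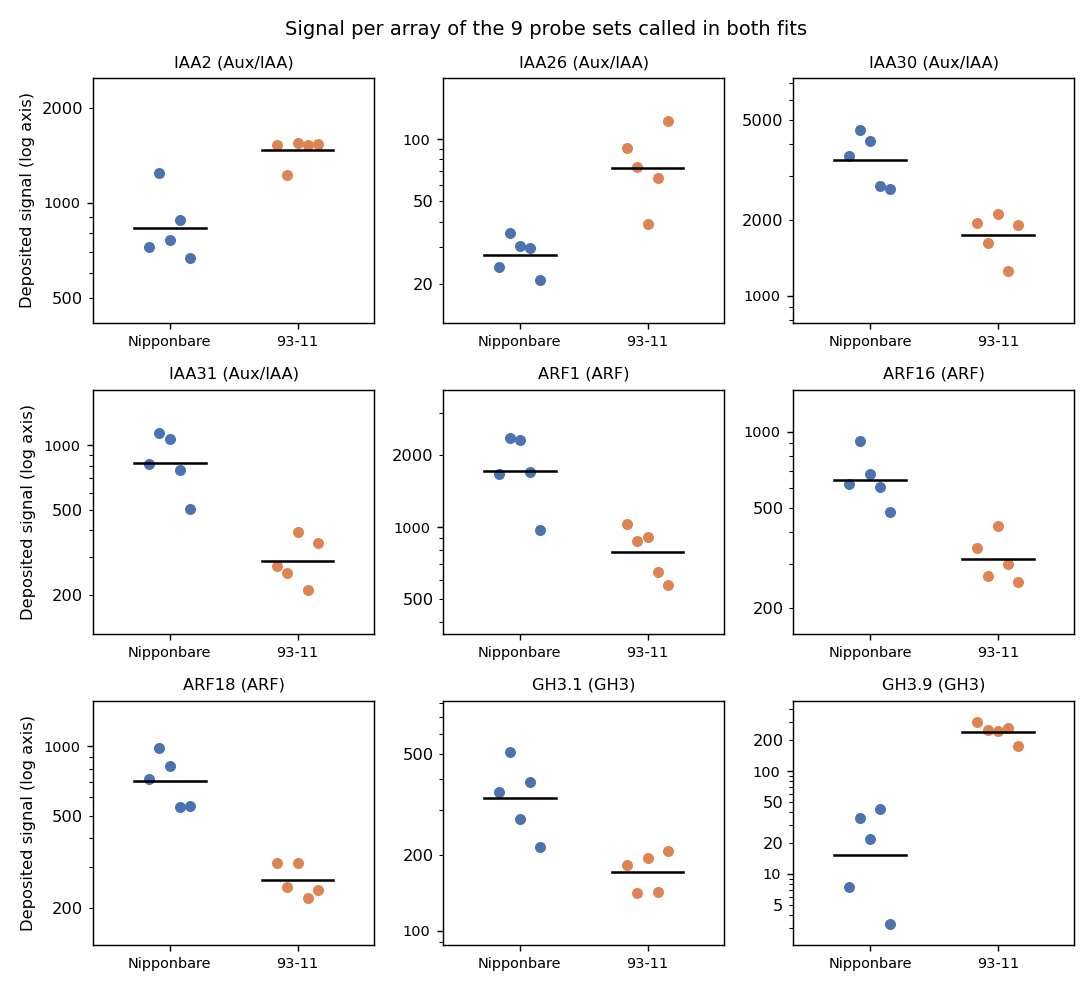
Deposited signal per array on a log axis for the 9 probe sets called in the same direction as deposited and after scaling, with 5 Nipponbare arrays (blue) and 5 93-11 arrays (orange) in the order of their replicate numbers and a line at the geometric mean. Only the panels of IAA2 and ARF1 show ranges that overlap as deposited, and GH3.9 has the widest gap, from 42.9 at most in Nipponbare to 173 at least in 93-11. The axes of the panels differ.

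Among the Aux/IAA repressors, IAA2 on chromosome 1 (LOC4326775) was higher in 93-11. Its signals were 722, 1246, 764, 883 and 666 in the Nipponbare replicates and 1534, 1231, 1557, 1526 and 1546 in those of 93-11. The cultivars overlapped as deposited, because replicate 2 of Nipponbare, from the array of highest level, was just above replicate 2 of 93-11. After scaling the highest Nipponbare value was 827 and the lowest of 93-11 was 1541. The ratio of the means was 1.73, and the log2 difference was 0.81 ± 0.17 (SE, limma adjusted p = 0.00379) as deposited and 1.16 ± 0.09 (adjusted p = 6.14e-07) after scaling.

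IAA26 on chromosome 9 (LOC4347643) was a weak probe set, with signals of 24.2, 35.1, 30.5, 29.8 and 20.8 in Nipponbare and 90.9, 73.7, 38.9, 64.6 and 123 in 93-11. The groups did not overlap, but both means (28.1 and 78.1) were under a log10 signal of 2.0, so no fold is given. Its log2 difference was 1.04 ± 0.25 (limma adjusted p = 0.00998) as deposited and 1.31 ± 0.24 (adjusted p = 0.00132) after scaling.

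IAA30 and IAA31 were both lower in 93-11. They lie next to each other on chromosome 12, with no other gene between them in the RefSeq gene table of assembly ASM3414082v1. For IAA30 (LOC4352721) the signals were 3598, 4572, 4130, 2729 and 2657 in Nipponbare and 1941, 1616, 2122, 1251 and 1910 in 93-11. For IAA31 (LOC4352722) they were 819, 1139, 1070, 770 and 502 in Nipponbare and 273, 254, 393, 211 and 348 in 93-11. Neither gene had a 93-11 array as high as its lowest Nipponbare array. The mean was 2.00 times higher in Nipponbare for IAA30 (log2 difference -0.98 ± 0.19, limma adjusted p = 0.00186, and -0.63 ± 0.12, adjusted p = 0.0018, after scaling). For IAA31 it was 2.91 times higher (-1.47 ± 0.22, limma adjusted p = 0.000194, and -1.12 ± 0.15, adjusted p = 9.98e-05, after scaling), the largest fall among the 65 probe sets on both scales.

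Both other calls of lower Aux/IAA signal were made as deposited only. IAA24 on chromosome 7 averaged 500 ± 134 in Nipponbare and 275 ± 116 in 93-11 (SD, n = 5 each, log2 difference -0.87 ± 0.25, limma adjusted p = 0.0272, and -0.53 ± 0.20, adjusted p = 0.104, after scaling). Its ranges overlapped, with 345 to 690 in Nipponbare and 191 to 454 in 93-11, and the call was lost without 1 array for 5 of the 10 arrays (replicates 1 and 2 of Nipponbare, and 1, 2 and 4 of 93-11). IAA8 on chromosome 2 was called through a weak probe set (40.9 ± 10.8 and 17.8 ± 8.26, limma adjusted p = 0.0476), and the call was lost without any array other than replicate 5 of Nipponbare.

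After scaling, 2 bright Aux/IAA probe sets were called higher in 93-11 that had not passed as deposited. IAA13, whose dominant mutants in rice form fewer lateral roots, had signals of 1923, 2836, 2137, 1971 and 1819 in Nipponbare and 3062, 2698, 3228, 2441 and 3510 in 93-11. IAA21 had 4200, 4600, 4489, 3209 and 3515 in Nipponbare and 5980, 5253, 6154, 4459 and 5658 in 93-11. In both genes the cultivars overlapped as deposited and did not after scaling, where the highest Nipponbare and lowest 93-11 values were 2180 and 3045 for IAA13 and 4211 and 5562 for IAA21. The log2 difference of IAA13 was 0.49 ± 0.16 as deposited (limma adjusted p = 0.0595) and 0.84 ± 0.09 after scaling (adjusted p = 1.68e-05). That of IAA21 was 0.46 ± 0.16 (limma adjusted p = 0.0674) and 0.82 ± 0.11 (adjusted p = 8.95e-05). Neither call after scaling depended on a single array. Of other bright Aux/IAA genes, IAA5, IAA10 and IAA15 had log2 differences between -0.28 and -0.20 as deposited and between 0.08 and 0.15 after scaling, and none of these passed the test.

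Another 6 Aux/IAA genes of moderate signal were not called on either scale. IAA7 averaged 656 ± 146 in Nipponbare and 684 ± 120 in 93-11 (SD, n = 5 each), with a log2 difference of 0.07 ± 0.18 as deposited and 0.42 ± 0.13 after scaling (limma adjusted p = 0.867 and 0.0508). IAA25 on chromosome 8 averaged 154 ± 44.6 and 177 ± 48.1, with 0.18 ± 0.23 and 0.51 ± 0.18 (limma adjusted p = 0.691 and 0.0766). IAA1 was at 578 ± 125 and 463 ± 90.1, IAA19 at 312 ± 52.8 and 275 ± 41.2, IAA6 at 168 ± 34.2 and 147 ± 5.57, and IAA18 at 133 ± 22.0 and 97.2 ± 16.1. The log2 differences of these last 4 genes lay between -0.40 and -0.15 as deposited and between -0.09 and 0.18 after scaling.

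Other Aux/IAA genes were weak on this array in both cultivars. IAA23, which in rice is known for its role in keeping the root quiescent centre, averaged 46.1 ± 17.3 and 20.8 ± 12 on the brightest of its 3 probe sets. IAA14 had signals of 64.7, 187, 61.0, 18.1 and 31.9 in Nipponbare and 20.2, 17.3, 19.0, 12.3 and 32 in 93-11, a spread within Nipponbare that was wider than the gap between the means (log2 difference -1.03 ± 0.38, limma adjusted p = 0.0903). IAA12 averaged 28.6 ± 7.06 and 31.1 ± 17.4, and IAA9 averaged 21.9 ± 21.9 and 18.2 ± 13, with ranges that overlapped in both genes.

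The ARF family holds activators and repressors of transcription, and the calls are given by its subgroups as known from plants in general. In the ETTIN type, which in Arabidopsis patterns the flower and lacks the domain that binds Aux/IAA proteins, 0 of 5 probe sets were called as deposited, and 3 were called higher after scaling, where 19.2% of all probe sets above 2.5 in both cultivars were. The 5 values, for ARF2, ARF3, ARF14 and ARF15, ran from -0.13 to 0.62 as deposited and from 0.23 to 0.98 after scaling. ARF15, also named OsETTIN1, had signals of 2421, 3939, 2701, 2475 and 1460 in Nipponbare and 3459, 2920, 2704, 2586 and 2769 in 93-11. These overlapped as deposited and separated after scaling, from 2561 at most to 2885 at least (log2 difference 0.21 ± 0.21, limma adjusted p = 0.606, and 0.57 ± 0.11, adjusted p = 0.00175, after scaling).

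Of the other ETTIN type genes, ARF3 averaged 2466 ± 833 in Nipponbare and 2164 ± 230 in 93-11 and ARF14 averaged 617 ± 218 and 565 ± 72. Their log2 differences after scaling, 0.23 ± 0.11 and 0.29 ± 0.11, did not pass the test (limma adjusted p = 0.204 and 0.117).

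Of the ARF genes whose transcripts are targets of the microRNA miR160, ARF18 was lower in 93-11, and ARF10 and ARF22 were not called. ARF18 on chromosome 6 (LOC4341882) had signals of 718, 985, 818, 547 and 550 in Nipponbare and 313, 245, 312, 221 and 239 in 93-11, with no overlap. Its mean was 2.72 times higher in Nipponbare, and the log2 difference was -1.37 ± 0.19 (limma adjusted p = 6.24e-05) as deposited and -1.03 ± 0.10 (adjusted p = 7.62e-06) after scaling. The means were 148 ± 45.9 and 86.3 ± 19.6 for ARF10 and 858 ± 230 and 652 ± 139 for ARF22 (log2 differences -0.65 and -0.38, limma adjusted p = 0.0766 and 0.285). After scaling these differences were -0.34 and -0.03.

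Among the activator type ARF genes, which carry a glutamine-rich middle region, ARF16 was lower in 93-11. ARF16 on chromosome 6 (LOC9270361) had signals of 622, 919, 679, 601 and 479 in Nipponbare and 345, 267, 423, 300 and 253 in 93-11. All 93-11 arrays were below all Nipponbare arrays, and the mean was 2.08 times higher in Nipponbare (log2 difference -1.01 ± 0.19, limma adjusted p = 0.00137, and -0.67 ± 0.10, adjusted p = 0.000386, after scaling). ARF12 averaged 4172 ± 1464 in Nipponbare and 3292 ± 384 in 93-11, and ARF17 averaged 1983 ± 503 and 1400 ± 227, with log2 differences of -0.28 and -0.47 that did not pass the test (limma adjusted p = 0.473 and 0.128).

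Among the relatives of Arabidopsis ARF1 and ARF2, which are repressors, ARF1 was lower in 93-11. ARF1 on chromosome 1 (LOC4327785) had signals of 1668, 2349, 2317, 1693 and 973 in Nipponbare and 1025, 871, 907, 647 and 573 in 93-11. The ranges overlapped as deposited through replicate 5 of Nipponbare, the array of lowest level in that cultivar. After scaling they separated, at 1166 and above in Nipponbare and 1090 and below in 93-11. The mean was 2.24 times higher in Nipponbare (log2 difference -1.11 ± 0.23, limma adjusted p = 0.00336, and -0.76 ± 0.16, adjusted p = 0.00383, after scaling). The other 7 probe sets of this subgroup, for ARF4, ARF7, ARF9, ARF23 and ARF24, had log2 differences between -0.40 and -0.03 as deposited. After scaling both probe sets of ARF4 were called higher, by 0.29 and 0.32 (limma adjusted p = 0.0438 and 0.0158). ARF7 (2057 ± 599 and 1523 ± 256), ARF9 (3842 ± 882 and 3142 ± 376) and ARF24 (4801 ± 1231 and 3751 ± 779) came to -0.05, 0.09 and 0.01 after scaling and were not called. The signs of ARF4 were turned by the scaling, since the differences were -0.07 and -0.04 as deposited, and the call of its first probe set was lost without 1 array for 7 of the 10 arrays (replicates 1, 2, 3 and 5 of Nipponbare, and 1, 2 and 4 of 93-11). ARF13, the ARF gene below a log10 signal of 1.5 in both cultivars, averaged 18.5 ± 4.74 and 12.4 ± 4.56.

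In the GH3 family, GH3.9 on chromosome 7 (LOC4343704) showed the largest difference of all 65 probe sets. Its signals were 7.40, 35.3, 22.0, 42.9 and 3.28 in Nipponbare and 301, 248, 246, 260 and 173 in 93-11. The probe set was weak on every Nipponbare array and clearly brighter on every 93-11 array, and the log2 difference of 2.89 ± 0.30 (limma adjusted p = 2.57e-06, and 3.19 ± 0.26, adjusted p = 8.11e-07, after scaling) is not read as a fold. GH3.1 on chromosome 1 (LOC4327043), whose enzyme joins auxin to amino acids, went the other way. Its signals were 354, 509, 278, 387 and 215 in Nipponbare and 182, 141, 194, 143 and 208 in 93-11. The lowest Nipponbare value was just above the highest of 93-11, and the mean was 2.01 times higher in Nipponbare (log2 difference -0.90 ± 0.21, limma adjusted p = 0.0084, and -0.57 ± 0.13, adjusted p = 0.00686, after scaling).

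The other GH3 genes were not called on both scales. GH3.8, an auxin-conjugating enzyme known in rice for its part in disease resistance, had signals of 390, 393, 127, 164 and 159 in Nipponbare and 329, 306, 306, 270 and 423 in 93-11. The Nipponbare arrays thus fell apart, with replicates 1 and 2 near those of 93-11, and the log2 difference was 0.52 ± 0.28 (limma adjusted p = 0.289) as deposited and 0.86 ± 0.24 (adjusted p = 0.0223) after scaling. The call after scaling was lost without replicate 4 of Nipponbare. GH3.4 and GH3.7 were also called higher only after scaling (0.58 ± 0.15 and 0.51 ± 0.14, limma adjusted p = 0.0189 and 0.0255, against 0.24 and 0.17 as deposited). The call was lost without replicate 2 of 93-11 for GH3.4, and without replicate 1 or 2 of either cultivar for GH3.7.

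GH3.5, also named OsJAR1, which joins jasmonate to isoleucine, averaged 288 ± 99.1 in Nipponbare and 183 ± 32.6 in 93-11, and the difference of -0.57 ± 0.22 did not pass (limma adjusted p = 0.122). GH3.6 was called lower as deposited only (86.5 ± 24.1 and 42.3 ± 20.8, log2 difference -0.85 ± 0.26, limma adjusted p = 0.0388). That call was lost without 1 array for 7 of the 10 arrays (replicates 1, 2 and 4 of Nipponbare and all but replicate 3 of 93-11). GH3.2 averaged 36.4 ± 5.80 and 33.5 ± 10.5, and GH3.11 averaged 146 ± 57.5 and 109 ± 28.2, with log2 differences of -0.11 and -0.30 that did not pass (limma adjusted p = 0.829 and 0.59).

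**Figure D3:**
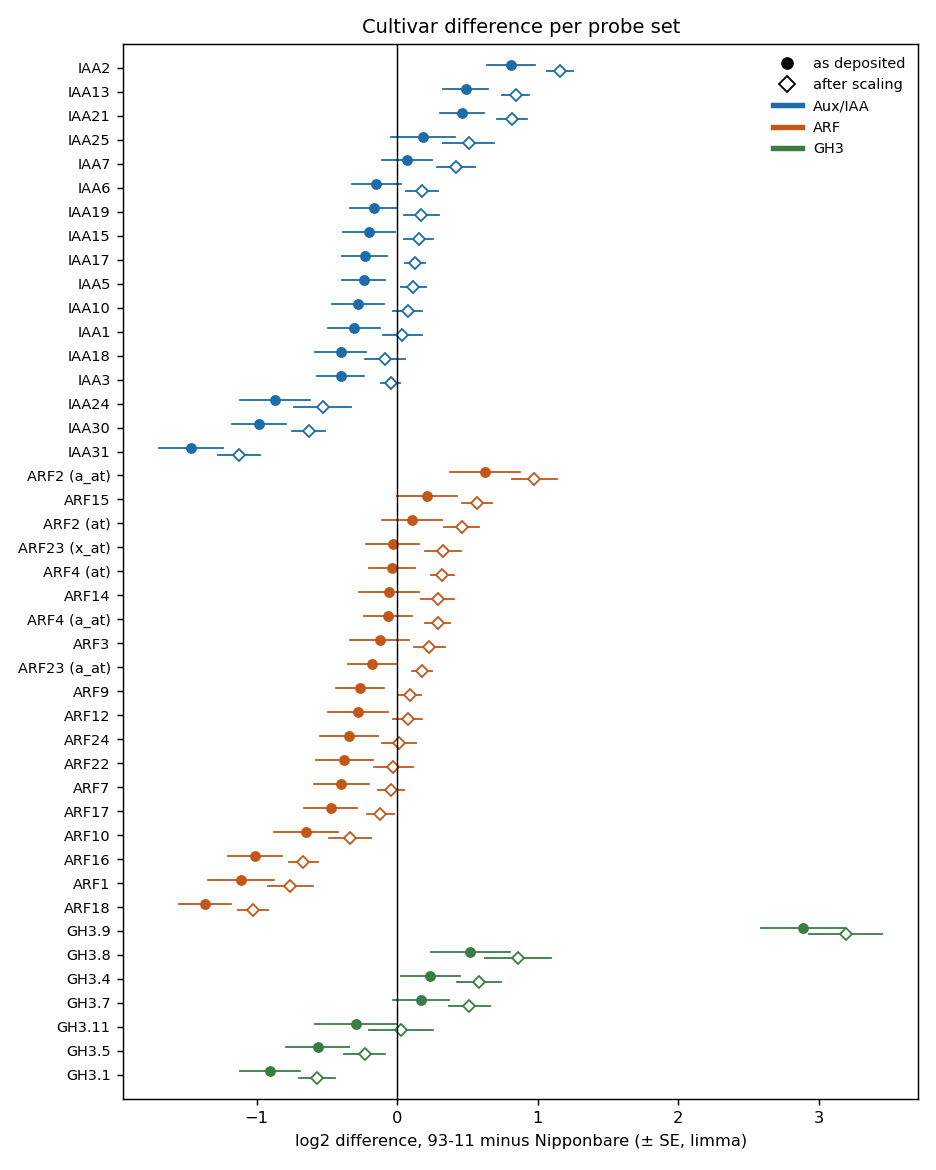
Log2 difference, 93-11 minus Nipponbare, of log2(signal + 16) with its limma SE for the 43 probe sets that passed a mean log10 signal of 2.0 in at least 1 cultivar (17 Aux/IAA, 19 ARF, 7 GH3), as deposited (filled circles) and after scaling to a common trimmed mean (open diamonds). Scaling moved all values to the right by a similar amount, so that the differences of IAA30, IAA31, ARF1, ARF16, ARF18 and GH3.1 stayed below 0 and 17 of the 43, among them ARF4, ARF23 and IAA17, went from below 0 to above 0.

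The ratio of a pair of genes within an array depends little on the level of that array. With 16 added to each signal, scaling shifted the change of no pair by more than 0.0436 on the log2 scale. For all 271 pairs of genes within a family, over the 39 genes with a mean log10 signal above 2.0, the log2 ratio was compared between cultivars by a two-sided exact permutation test over all divisions of the arrays into 5 and 5, for which the smallest p is 0.00794. The ratio changed in 147 pairs after adjustment over the 271 pairs, namely 73 of 136 Aux/IAA pairs, 68 of 120 ARF pairs and 6 of 15 GH3 pairs. On scaled values 147 were called, of which 145 were the same pairs. The ranges of the ratio did not overlap between cultivars in 121 pairs. Pairs share genes, so these counts are not of independent results. Pairs of other genes were not compared, so nothing particular to these families is read from the counts.

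Within the Aux/IAA family the changed pairs centred on a few genes. IAA31 fell in 93-11 against all 16 other genes and IAA30 against 13, whereas IAA2 rose against 14, IAA13 against 13 and IAA21 against 12. The largest change was that of IAA2 to IAA31, whose log2 ratio was 0.01 in Nipponbare and 2.29 in 93-11, a change of 2.28 (exact p = 0.00794, adjusted p = 0.0178). Next came IAA13 to IAA31 with a change of 1.95, IAA21 to IAA31 with 1.93, IAA2 to IAA30 with 1.79 and IAA2 to IAA24 with 1.68, all with the same exact p and adjusted p. IAA25 and IAA7 rose against IAA31 by 1.65 and 1.54 (same p). The neighbours IAA30 and IAA31 also differed in their fall, with a log2 ratio of 2.04 in Nipponbare and 2.53 in 93-11 (change 0.48, exact p = 0.00794, adjusted p = 0.0178). The ratio of IAA13 to IAA21 was -0.90 and -0.88, a change of 0.03 (exact p = 0.849).

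In the ARF family, ARF18 fell against 14 of the 15 other genes, ARF1 and ARF16 each against 13 and ARF10 against 10, and ARF15 rose against 11 and ARF2 against 9. The largest change was that of ARF15 to ARF18, from a log2 ratio of 1.79 in Nipponbare to 3.37 in 93-11 (change 1.58, exact p = 0.00794, adjusted p = 0.0178). Within the miR160 targets, ARF18 fell against ARF22 by 0.99 and ARF10 rose against ARF18 by 0.72 (each exact p = 0.00794, adjusted p = 0.0178), and the ratio of ARF10 to ARF22 changed by -0.28 (exact p = 0.111, adjusted p = 0.159). Within the activator type, ARF12 rose against ARF16 by 0.73 and ARF16 fell against ARF17 by 0.54 (each exact p = 0.00794, adjusted p = 0.0178), and ARF12 to ARF17 changed by 0.19 (exact p = 0.214, adjusted p = 0.271). The ratio of ARF23 to ARF24 changed by 0.16 (exact p = 0.27, adjusted p = 0.331) and that of the ETTIN type genes ARF2 and ARF15 by -0.11 (exact p = 0.175, adjusted p = 0.225).

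In the GH3 family, GH3.1 and GH3.5 each fell against GH3.4, GH3.7 and GH3.8, which made up the 6 changed pairs. The largest was GH3.1 to GH3.8, whose log2 ratio was 0.57 in Nipponbare and -0.86 in 93-11 (change -1.42, exact p = 0.00794, adjusted p = 0.0178). GH3.2, GH3.6 and GH3.9 did not enter the pairs, because their mean log10 signal over all 10 arrays was not above 2.0. For GH3.9 this mean was 1.78, although its signal averaged 246 in 93-11.

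**Figure D4:**
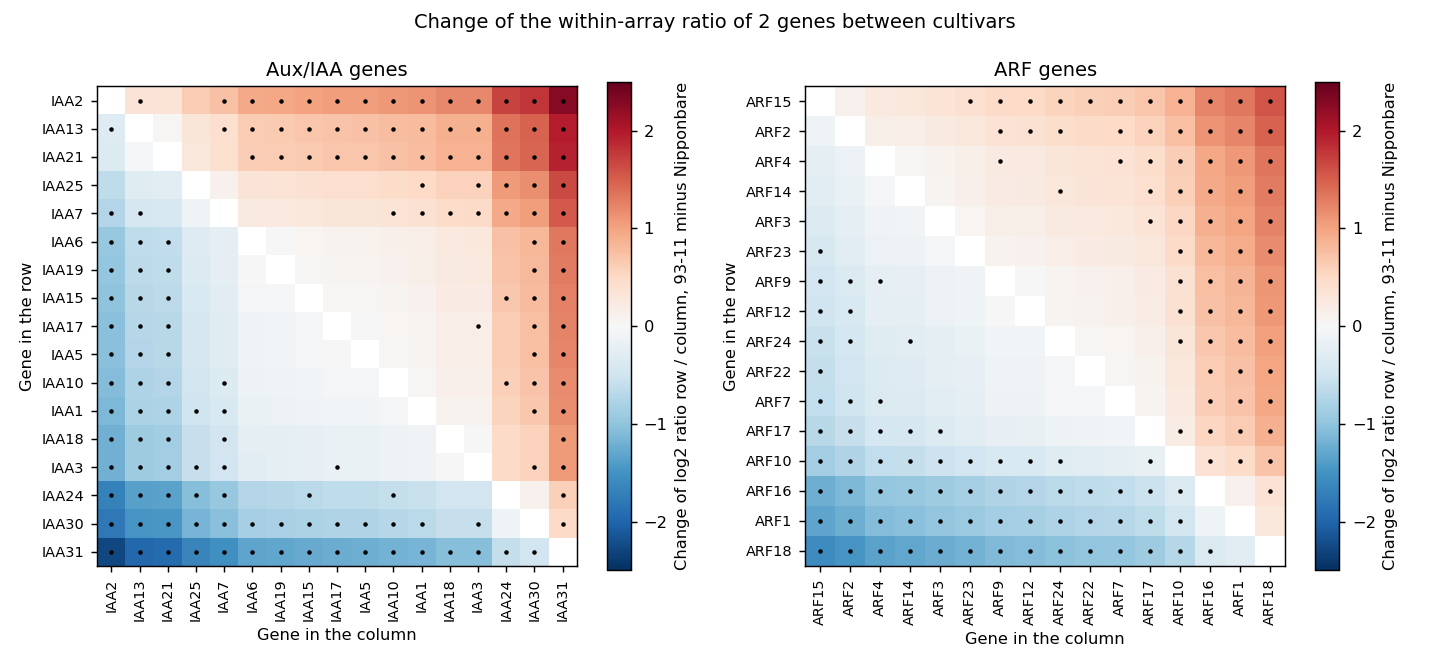
Change of the log2 ratio of the gene in the row to the gene in the column, 93-11 minus Nipponbare, within arrays, for 17 Aux/IAA genes (left) and 16 ARF genes (right) ordered by their summed change. Red is a rise and blue a fall, and dots mark pairs with an adjusted exact permutation p under 0.05. IAA31 has dots against all 16 others and ARF18 against 14 of 15, and the middle of each panel is pale.

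Where 1 gene had several probe sets, its cultivar difference was also compared between its 2 brightest ones by the same exact test. The difference between them changed for 2 of 10 genes after adjustment over the 10 genes, and for 0 without any single array other than replicate 2 of Nipponbare or with 1 instead of 16 added. A gene that alone reaches the smallest p of this test cannot pass the adjustment over 10 genes. Each of the 2 calls thus depended on the other, and a count of 0 does not show that both contrasts were lost. ARF2 (OsETTIN2) was bright on both of its probe sets, with signals of 2462, 3674, 2235, 2507 and 1447 in Nipponbare and 3351, 2781, 2254, 2107 and 2380 in 93-11 on the probe set whose name ends in S1_at. On that ending in S1_a_at they were 788, 1511, 851, 914 and 439 in Nipponbare and 1563, 1388, 1206, 1376 and 1019 in 93-11. The log2 ratio of the first to the second fell by 0.52, from 1.48 to 0.96 (exact p = 0.00794, adjusted p = 0.0397). After scaling both were called higher in 93-11, by 0.46 ± 0.12 (limma adjusted p = 0.019) and 0.98 ± 0.16 (adjusted p = 0.000549), so the size of the difference depended on the probe set. The call of the first was lost without replicate 1 or 2 of 93-11.

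The second such gene was IAA31, but its other probe set lay near the floor of the array (5.41 ± 3.52 in Nipponbare and 2.28 ± 0.628 in 93-11), so its call has no second measurement. With so weak a probe set, scaling moved the change of the ratio from -1.25 to -0.97. For the probe sets of ARF4 and of ARF23 the ratio changed by 0.03 and -0.15 (exact p = 0.706 and 0.278). For GH3.7 the change between its bright and its next probe set was 0.30 (exact p = 0.0873, adjusted p = 0.278).

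Other genes of the auxin pathway were looked up by name and gave 24 probe sets for synthesis, transport, corepressors and kinases, early response and breakdown. The receptors TIR1 and AFB matched no probe set and were not analysed here. As deposited, 0 of the 24 were higher in 93-11 (also 0 at an unadjusted p under 0.05 and 0 by the methods' t-test) and 5 were lower, and after scaling 1 was higher and 2 were lower, with medians of -0.36 and -0.07. The lower calls on deposited values make 20.8% of the list, beside 11.9% of all rice probe sets and 17.8% of those paired with 1 gene. On scaled values the list had 4.17% higher and 8.33% lower calls. The shares were then 7.84% and 9.21% over all rice probe sets and 12.6% and 13.6% over the paired ones, from which the list was drawn. The 5 became 8 without replicate 5 of Nipponbare, 6 without replicate 3 of 93-11 and 2 to 4 without any other array. Lower on both scales were DAO and ILL7. DAO, a dioxygenase that oxidises auxin and in rice is needed for anthers to open, had signals of 423, 429, 371, 184 and 145 in Nipponbare and 92.7, 65.2, 114, 107 and 166 in 93-11, so only replicate 5 of each cultivar made the ranges overlap (log2 difference -1.31 ± 0.30, limma adjusted p = 0.00634, and -0.99 ± 0.25, adjusted p = 0.0135, after scaling). ILL7, which is related to enzymes that free auxin from amino acids, averaged 389 ± 78.7 and 225 ± 27.5 with no overlap (-0.73 ± 0.17, limma adjusted p = 0.00658, and -0.40 ± 0.10, adjusted p = 0.0105, after scaling).

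Of 7 transport probe sets, those of pinA (358 ± 89.5 and 201 ± 56.1) and of OsPIN5 (46.2 ± 21.1 and 15.2 ± 9.20) were lower as deposited only. OsYUCCA1, an enzyme of auxin synthesis, was lower on a weak probe set as deposited (37.4 ± 15.2 and 14.7 ± 5.23, limma adjusted p = 0.0454) and higher on a brighter one after scaling (log2 difference 0.47 ± 0.12, limma adjusted p = 0.0166, with 0.13 as deposited). None of the 4 probe sets of OsPID, OsTPR1 and OsTPR2, a kinase that directs auxin transport and corepressors of the TOPLESS type, was called on either scale.

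The spread between replicates set how small a difference could be seen. The median SD of log2 signal within a cultivar over the 29 probe sets above 2.5 was 0.31 as deposited and 0.18 after scaling, beside 0.29 and 0.17 for all 11006 probe sets of that level.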

How the data were processed

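The authors hybridized labeled cRNA of young panicles to 10 arrays, 5 per cultivar, and per the submitters' processing notes processed them with GCOS 1.3. They deposited 1 intensity per probe set and array on a linear scale. For the probe summary and any scaling target, a method was not given in the sources used here. Precision is limited by the count of arrays. Of 57381 probe sets, 123 controls were left out, and no column was left unmapped. Genes were named from GEO's platform annotation, with symbols of RefSeq (assembly ASM3414082v1): 22436 probe sets had 1 gene, 95 several and 34727 were unnamed here. All 65 members were in that table. Where a gene had several numbers, the alias was used that keeps each family's numbers in chromosome order, so that some genes named here carry a number of another as an alias (ARF1 also ARF16, ARF18 also ARF10, ARF4 also ARF2, IAA5 also IAA8).

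Limma 3.58.1 (R 4.3.3) fitted log2(signal + 16) with eBayes and an intensity trend, two-sided, on deposited values and again on arrays brought to the same trimmed mean (2% off each end). Data over 57258 probe sets were simulated from the scaled values of this comparison. In them limma found 32 of 100 changes of 0.5 and 86 of 100 of 1 on the log2 scale, with 5 false calls. Far fewer probe sets were changed there than the 4490 called higher and 5274 called lower in the scaled data. These rates are thus not read as the sensitivity for the members or for deposited values. Permutation tests and figures used scipy 1.17.1, numpy 2.4.6, matplotlib 3.10.9 and pandas 2.3.3 (Python 3.11.15). All pairs of genes of a family were compared, a choice made after seeing the data: pairs of closest proteins had been planned, and protein sequences were not used here. Alternatives were quantile normalization, scaling to 18 hybridization control probe sets, 1 or 64 added, and filters at log10 2.0 and 2.5. Others were no trend, robust eBayes, an ordinary t-test without eBayes, the replicate number as a block, and leaving out arrays. Named are the calls made on both scales with a mean log10 signal above 2.0, the 3 brightest probe sets per family, genes with 1 probe set called as deposited and another not, the 8 most changed pairs, all GH3 genes and up to 2 pathway genes each way per role. Genes outside this rule (IAA26, ARF2, all other Aux/IAA and ARF genes that meet none of these and pairs beyond the first 8) were named after their values were seen. Members and lists were chosen with earlier results of these data known. The labels call the replicates biological, and p-values measure the spread between them.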

Additional observations from a re-analysis of the deposited data

Results flagged for a closer look

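Of 62 groups of 5 arrays (31 named probe sets in 2 cultivars), 6 had 1 array far from the other 4 on the scale of log2(signal + 16), by a gap of more than 0.71 of the group's range, and chance alone flags about 1 in 20 groups. IAA2 was 1231 in replicate 2 of 93-11 and 1526 to 1557 in the others, and its deposited signals do not overlap without this array or without replicate 2 of Nipponbare. GH3.5 was 128 in replicate 5 of 93-11 and 187 to 214 in the others. The other flags fell on weak probe sets. IAA8 was 3.07 in replicate 2 of 93-11 against 20.8 to 22.1 on the probe set called lower, and 19.7 in the same array against 1.39 to 4.95 on its other probe set. The weak probe set of IAA31 was 3.36 in replicate 3 of 93-11 against 1.89 to 2.3, and a weak one of GH3.7 was 1.58 in replicate 5 of Nipponbare against 17.4 to 24.9.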

How the results depend on the processing

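The 9 lower calls as deposited were 6 to 13 under the alternatives, always within 1.5 times. The 3 higher calls became 13 after scaling, 13 after quantile normalization, 6 after scaling to the hybridization controls and 5 with robust eBayes, and were 3 to 6 with 1 array left out (6 without replicate 2 of Nipponbare). The median log2 difference of the members moved from -0.21 to 0.0754 after scaling and to 0.0526 after quantile normalization. Pathway calls went from 0 to 1 higher and from 5 to 2 lower after scaling. With 1 array left out they were 2 to 8 lower as deposited (2 without replicate 1 and 8 without replicate 5 of Nipponbare) and 1 to 3 higher after scaling.

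The same replicate number did not pair the arrays throughout. The correlations of their deviations were 0.05, 0.01, -0.05, 0.48 and 0.50 for numbers 1 to 5, and 2 of 5 Nipponbare arrays correlated best with their own number. Arrays numbered 4 and 5 thus shared variation across the cultivars, which the fit without a block leaves out. With the replicate block, higher and lower calls of members stayed within 1.5 times on both scales, but IAA8 and GH3.6 as deposited and GH3.7 after scaling were no longer called. Sign flips within the replicate block cannot reach an exact permutation p below 0.0625, so the 147 changed pairs became 0. The same-gene calls went from 2 to 0 with 1 added before log2, and were 0 to 2 with 1 array left out (2 only without replicate 2 of Nipponbare). As a gene that alone reaches the smallest p cannot pass that adjustment, losing 1 of these calls also ends the other.

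Probe sets that were not called as deposited changed sign after scaling: IAA8 (second probe set) to 0.0114 (0.0222 by quantile normalization), IAA17 to 0.123 (0.0176), GH3.11 to 0.0265 (0.235). With quantile normalization and hybridization controls in turn, ARF4 turned to 0.29, 0.23 and 0.15, its other probe set to 0.32, 0.26 and 0.18, ARF23 to 0.174, 0.0705 and 0.0347, GH3.2 to 0.142, 0.268 and 0.0525 and a weak one of GH3.7 to 0.142, 0.337 and 0.0401. Without both arrays numbered 5, IAA7 was -0.0221, GH3.4 -0.0221, a weak GH3.7 probe set -0.116 (-0.00634 with 64 added) and, after scaling, GH3.11 -0.0607. With 1 array left out, IAA7 ran from -0.00819 to 0.157 and the second probe set of IAA8 from -0.28 to 0.020 (-0.19 to 0.14 after scaling). ARF4 ran from -0.18 to 0.0375 and from -0.123 to 0.0592, and GH3.2 from -0.171 to 0.0131. The weakest GH3.7 probe set ran from -0.21 to 0.10 and GH3.11 after scaling from -0.17 to 0.14. As deposited, the brightest GH3.7 probe set ran from 0.053 to 0.264 and the IAA8 probe set called lower from -0.83 to -0.58, without a change of sign. The cause of the changes of sign beyond the array level was not tested.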
